A study of Mus musculus with 6 samples.

Results

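Cells given 6 µl of lentivirus carrying a short hairpin RNA (shRNA) against Stc1 were compared with cells given a non-targeting shRNA. The comparison used 4 of the 6 arrays of the study, chosen by the transduction stated for each sample: 2 of the STC1 virus at 6 µl and 2 of the non-targeting virus. All samples were 4T1ch9 cells, a derived clone of the Balb/c mouse mammary carcinoma line 4T1, and all were transduced and then selected with puromycin, the controls included. The 2 non-targeting arrays had received 6 µl (replicate 1) and 18 µl (replicate 2), so only 1 control array matched the STC1 arrays in volume. The remaining 2 arrays carried the STC1 virus at 18 µl and are used here for a direct test between volumes. The 2 non-targeting arrays, given different volumes, were separate transductions, and their spread includes any effect of volume. For the STC1 arrays of 1 volume the labels do not state separate cultures, so their spread may be technical. P-values here reflect only how far these arrays differ.

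Stc1 encodes stanniocalcin 1, a secreted glycoprotein first described in fish, where it lowers the uptake of calcium; in mammals it is made in many tissues and acts locally. A lentiviral shRNA is processed in the cell into a small RNA that directs the cleavage of its matching messenger RNA, while a non-targeting shRNA passes through the same machinery without an intended target. 4T1 cells form tumours in Balb/c mice that spread to lung and bone, and they carry no working p53.

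Values are bead intensities after background correction and quantile normalisation, on a log2 scale, so that a log2 difference of 1 is a 2-fold change. A probe was tested where it was above background on at least 2 of the 6 arrays, which left 18076 of 45281 probes and 9754 named genes. A gene is called changed where limma's p-value, adjusted over all tested probes by the Benjamini-Hochberg method, was under 0.05. Before normalisation the STC1 arrays at 6 µl had mean intensities of 310.6 and 271.9, against 228.3 and 253.1 on the non-targeting arrays. Between 16344 and 17507 probes were above background on these 4 arrays, and 2 arrays a group limit the precision of each value. Of 10 genes listed as typical of a mammary carcinoma line, 6 were above background on at least 2 of the 6 arrays, among them Krt8, Krt18 and Cdh1, while Epcam, Krt19 and Esrp1 were above background on none. The defining leukocyte genes Ptprc and Itgam, the endothelial genes Pecam1 and Cdh5, and the fibroblast genes Col1a1, Col3a1 and Dcn were above background on no array. Other members of those lists were above background on at least 2 arrays: Cd3e, Coro1a and Csf1r of the leukocyte list, Egfl7 and Kdr of the endothelial list, and Pdgfra and Pdgfrb of the fibroblast list. The summed raw intensity of the leukocyte list ran from 539.9 to 596.4 on the STC1 arrays at 6 µl and from 501.1 to 536.2 on the non-targeting arrays, and that of the endothelial list from 1091 to 1494 and from 854.4 to 980.2. These sums are not normalised. That of the mammary carcinoma list was likewise higher, from 12040 to 14621 against 9751 to 11047, as was the mean intensity given above. The part of leukocyte and endothelial genes in the results was not tested.

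The targeted transcript was lower with the STC1 virus. Stc1 had log2 intensities of 7.68 and 7.87 on the STC1 arrays at 6 µl, against 9.05 and 9.32 on the non-targeting arrays. Both STC1 arrays lay below both non-targeting arrays, and Stc1 stayed above background on all 6. These values come from 1 probe. A second Stc1 probe was above background on no array and was not tested. It fell by 1.41 on the log2 scale (SE 0.16, 95% interval -1.78 to -1.04, limma adjusted p = 0.00923), a level 2.65-fold lower. In RNA from whole cultures, a lower level in every cell and loss of the transcript from some cells only cannot be told apart. Stc2, the other stanniocalcin, was above background on 3 arrays, with 4.68 and 4.98 on the STC1 arrays against 4.85 and 4.73 on the non-targeting arrays, and its difference of 0.04 did not pass (limma adjusted p = 0.892). The call for Stc1 was lost when either STC1 array was left out (-1.31 without replicate 1 and -1.50 without replicate 2, limma adjusted p = 0.0683 and 0.0689) and without non-targeting replicate 2 (-1.27, limma adjusted p = 0.0565). A lone array is assumed in such fits to vary like the other groups.

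Across the transcriptome, 381 of 9754 genes changed, 3.91% of those tested. Of these, 211 were higher (2.16%) and 170 lower (1.74%) in STC1 cells at 6 µl. At the probe level 691 of 18076 changed (3.82%), 362 higher (2%) and 329 lower (1.82%). A change of at least 2-fold was seen for 44 genes that rose and 46 that fell, and the smallest fold called was 1.45. In terms of separation alone, both STC1 arrays lay beyond both non-targeting arrays for 58.4% of all genes, so separation of the 4 arrays by itself is common here. The median difference over all genes was 0.03 and the median absolute difference 0.18, against a median gap of 0.13 between the 2 STC1 arrays and 0.13 between the 2 non-targeting arrays. Stc1 itself was not the most reduced transcript: 14 genes fell further, and 1 of them, Tmsb10, fell by more than 2 times as much on the log2 scale. Of the changed genes, 145 had another tested probe. Another probe was called in the same direction for 53 of them and in the opposite direction for 0. All further probes had the same sign for 121.

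The number of changed genes depended on having both arrays of each group. It was 13 without STC1 replicate 1, 10 without STC1 replicate 2, 29 without non-targeting replicate 1 and 29 without non-targeting replicate 2. The genes called in all 4 of those fits numbered 8: Ccl9 was higher, and Tmsb10, Slco4a1, Mycbp, Sri, Bloc1s1, Polr3k and Entpd6 were lower. Most of the 381 calls were lost in these fits. Every changed gene tested in such a fit kept its sign, but in all 381 the 2 pairs of arrays were already apart. The kept sign therefore largely follows from the calls and is no further support.

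**Figure D1:**
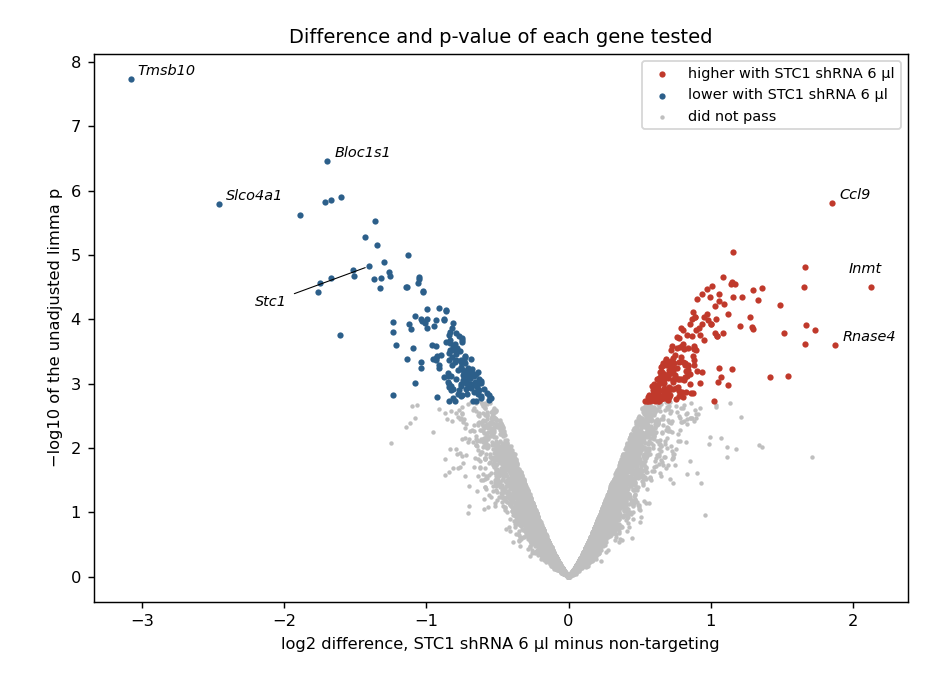
Each point is a named gene, with the log2 difference of STC1 shRNA 6 µl minus non-targeting on the horizontal axis and -log10 of the unadjusted limma p on the vertical axis. Red points are the 211 genes that rose, blue points the 170 that fell and grey points those that did not pass. Tmsb10 stands alone at the far left, and Stc1 lies within the group of fallen genes.

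The falls were led by Tmsb10, thymosin beta 10, a small peptide that binds actin monomers. It had 8.30 and 8.31 on the STC1 arrays given 6 µl, against 11.37 and 11.40 on the non-targeting arrays. The gap between the groups was far wider than the gap within either, and the level was 8.45-fold lower (log2 difference -3.08, SE 0.16, limma adjusted p = 0.000166). Its other 2 tested probes were also called lower. One differed by -3.17, and the other was not above background on either STC1 array, so that only a bound can be given, at least 1.64-fold lower. Slco4a1, a transporter of organic anions such as thyroid hormone, had 7.48 and 7.64 on the STC1 arrays against 10.26 and 9.77 on the non-targeting arrays, 5.49-fold lower (log2 difference -2.46, SE 0.21, limma adjusted p = 0.00265). For both genes each STC1 array lay more than 2 log2 units below each control array.

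Several of the next largest falls were in genes of intracellular machinery. Mycbp encodes a protein that binds MYC. It had 7.14 and 7.41 in STC1 cells at 6 µl against 9.29 and 9.04 in non-targeting cells, 3.70-fold lower. Of its other probes 1 also fell, by 1.72. Another differed by 0.14 without passing, and was above background on 1 STC1 array and on no non-targeting array. Bloc1s1, a subunit of the BLOC-1 complex of lysosome-related organelle formation, had 7.36 and 7.42 against 9.08 and 9.09, 3.24-fold lower. Polr3k, a subunit of RNA polymerase III, had 7.13 and 7.30 in STC1 cells against 8.85 and 8.91 in non-targeting cells, 3.18-fold lower, and its other probe fell by 1.56. In each of the 3, the pair of STC1 arrays lay more than 1.5 log2 units below the pair of non-targeting arrays. Entpd6, a nucleoside diphosphatase, had 4.68 and 4.54 in STC1 cells against 6.14 and 6.28 in non-targeting cells, 3.03-fold lower. It was above background on only 1 of the 2 STC1 arrays, and its fall was as small as 0.89 among the alternative background corrections and offsets.

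Other large falls were in enzymes and signalling proteins. Eif4ebp1, which holds the cap-binding factor eIF4E in check, fell 3.36-fold, with 8.61 and 8.71 in STC1 cells at 6 µl against 10.34 and 10.48 in non-targeting cells. Chac1, an enzyme that degrades glutathione, fell 3.05-fold, with 8.35 and 8.44 against 10.05 and 9.96. Hif1a, the oxygen-regulated transcription factor subunit, fell 2.86-fold, with 7.06 and 6.63 in STC1 cells against 8.48 and 8.24 in non-targeting cells. All 3 were separated on the 4 arrays. Phex, a membrane peptidase needed for normal phosphate balance, fell 2.85-fold, and Dusp27, an atypical member of the dual specificity phosphatases, fell 2.69-fold with a further probe at -1.40. Among the 15 largest falls the SEs lay between 0.12 and 0.26 and the limma adjusted p-values between 0.000166 and 0.0189.

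The largest rise was in Inmt, a methyltransferase of indole amines. It had 6.47 and 6.60 on the STC1 arrays at 6 µl, against 4.50 and 4.32 on the non-targeting arrays, where it was not above background. Only a bound can therefore be given, at least 3.45-fold higher (bright group's mean against the lowest signal above background on each dim array), with limma adjusted p = 0.00984. A second Inmt probe differed by 0.45 and did not pass. Rnase4, a secreted ribonuclease, had 8.34 and 8.17 in STC1 cells against 6.57 and 6.20 in non-targeting cells, 3.66-fold higher. Ccl9, a chemokine that attracts myeloid cells through CCR1, had 7.21 and 7.46 against 5.34 and 5.63, 3.61-fold higher (log2 difference 1.85, SE 0.16, limma adjusted p = 0.00265). Each of these was higher on both STC1 arrays than on either control array.

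Metabolic and secreted products followed. Bdh2, a hydroxybutyrate dehydrogenase of the cytosol, rose 3.33-fold, with 6.96 and 7.18 in STC1 cells at 6 µl against 5.50 and 5.17 in non-targeting cells. F5, coagulation factor V, rose 3.18-fold, with 7.04 and 7.21 against 5.62 and 5.30; a further F5 probe differed by 0.39 and did not pass. Mustn1, a nuclear protein of muscle and skeletal tissue, rose 3.17-fold and its second probe was also called (1.43). Phactr1, a regulator of protein phosphatase 1 that binds actin, rose 3.17-fold on the brighter probe. Its other probe, above background on 1 array of each group, differed by -0.11 and did not pass. The rest of the 15 largest rises were Camk2n1, Tnfsfm13, Slc44a3, Apol9a, Chst1, Slc24a3, Gbp2 and Insl6, at 2.45-fold to 3.16-fold. Over all 15, SEs ran from 0.16 to 0.31 and limma adjusted p-values from 0.00265 to 0.033. With dim probes kept in the fit, Rnase4, Bdh2, F5, Phactr1, Tnfsfm13, Slc44a3, Apol9a, Chst1 and Insl6 lost their call.

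**Figure D2:**
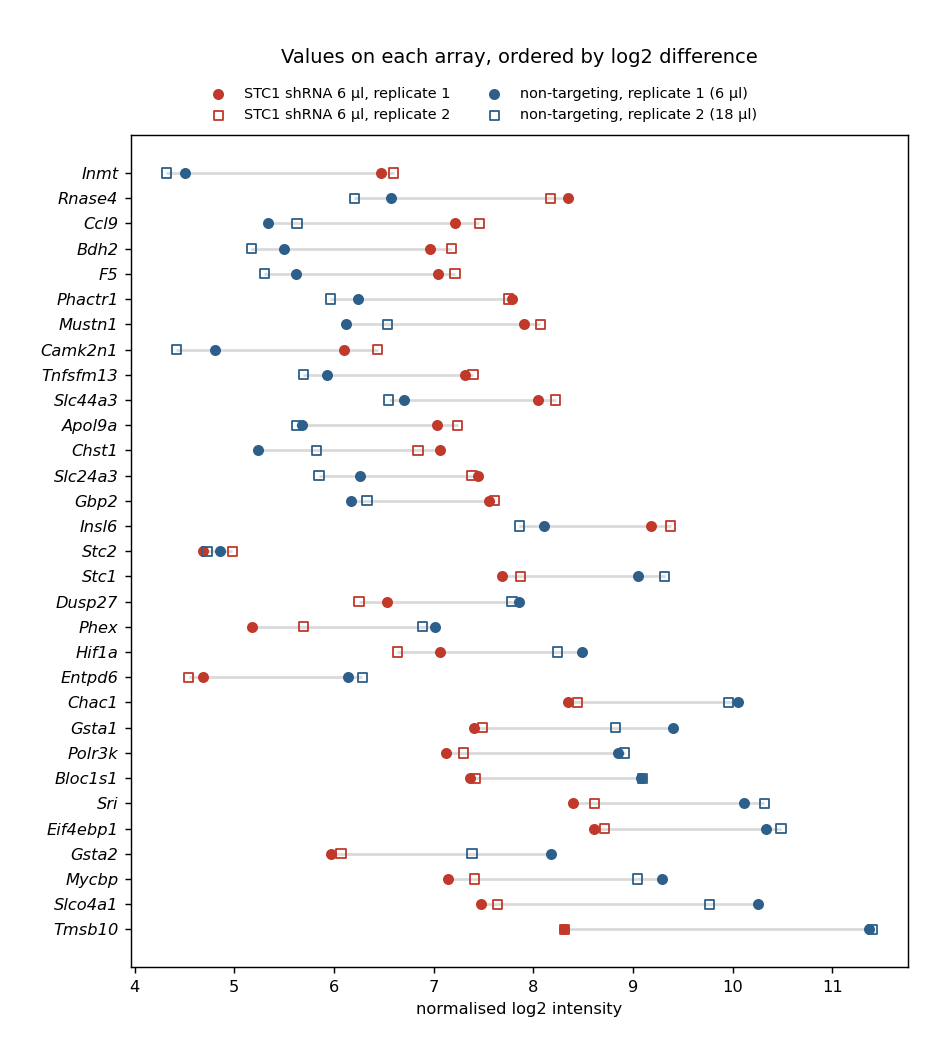
Normalised log2 intensity (horizontal axis) on each of the 4 arrays for Stc1, Stc2 and the genes with the largest rises and falls, ordered by difference. Red symbols are the STC1 shRNA 6 µl arrays and blue symbols the non-targeting arrays, filled for replicate 1 and open for replicate 2. The pairs are apart for every gene but Stc2, because the largest rises and falls were chosen among genes with separated arrays.

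A few transcripts crossed the detection limit between the groups. Of the genes that rose, 17 were above background on no non-targeting array, and of those that fell, 3 were above background on no STC1 array at 6 µl. Detected on both STC1 arrays and on neither control array, besides Inmt, were Fam180a (at least 2.10-fold higher), Lynx1, a modulator of nicotinic receptors (at least 1.67-fold), Pou5f2, a POU-domain factor (at least 1.64-fold), and Gstt1, a glutathione transferase (at least 1.63-fold). Detected on both non-targeting arrays and on neither STC1 array were Eya2, a transcriptional coactivator with phosphatase activity (at least 1.64-fold lower), and Scarb1, a lipoprotein receptor (at least 1.56-fold lower). Lynx1, Gstt1, Eya2 and Scarb1 were not called when dim probes were kept, and nor was Inmt. Lynx1 and Gstt1 were also not called under scaling over probes detected on all arrays, and Scarb1 with only the 4 arrays fitted. Among the alternative background corrections the difference was as small as 1.20 for Inmt and 0.64 for Fam180a.

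Calls with dim probes kept were followed by name only for the up to 5 members of each list below with the smallest p. Of these, the following also lost their call: Chac1, Mmp10, Plaur, Il23a, Oasl2, Parp14, Nfkbie, Txn2, Pdia4, Vegfa, Pfkl, Vhl, P4ha1, Dusp5, Epha2, Nuak2, Fas, Cdkn1a, Has2, Itgb5, Angpt1, Pdgfc, Mxd1 and Tk1. Gene lists were described by how many of their tested members changed, against the 3.91% of all genes, and by their median difference, against 0.03 for all genes. Lists and members were chosen with earlier results of these data known. Their shares are therefore descriptions, and a share above 3.91% is no evidence that a list is enriched. Of 17 tested genes of calcium and phosphate handling, the function for which stanniocalcin is named, 2 rose and 1 fell (17.6%), with a median of 0.18. Camk2n1, an inhibitor of the calcium- and calmodulin-dependent kinase II, had 6.10 and 6.44 in STC1 cells at 6 µl against 4.81 and 4.42 in non-targeting cells, 3.16-fold higher, and its other probe, undetected on both non-targeting arrays, was at least 1.93-fold higher. Slc24a3, which exchanges sodium for calcium and potassium across the plasma membrane, had 7.44 and 7.38 in STC1 cells against 6.26 and 5.85 in non-targeting cells, 2.56-fold higher. Sri, the calcium-binding protein sorcin, had 8.40 and 8.61 in STC1 cells against 10.12 and 10.32 in non-targeting cells, 3.27-fold lower, and its 2 other tested probes fell by 1.41 and 1.17. Values without a call included Itpr2, a calcium release channel of the endoplasmic reticulum (0.46, limma adjusted p = 0.079), and Xpr1, the phosphate exporter (0.46, limma adjusted p = 0.0873).

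The hypoxia and glycolysis list held the most calls. Of its 24 tested members 7 fell and 1 rose (33.3%), the median was -0.54, and 21 lay below 0. With dim probes kept 1 of 27, Hif1a, fell and 0 rose, so the other changed members, Hk1, Ankrd37 and Slc2a1 included, lost their call. Without background correction 12 of 24 fell. Besides Hif1a, the fallen genes were Hk1 (2.12-fold lower) and Pfkl (1.91-fold), which encode enzymes of upper glycolysis, Ankrd37 (1.83-fold), Vhl, the substrate receptor that marks HIF subunits for degradation (1.69-fold), P4ha1, a collagen prolyl hydroxylase (1.64-fold), and Slc2a1, the glucose transporter GLUT1 (1.62-fold). Slc2a1 had 10.43 and 10.60 in STC1 cells at 6 µl, against 11.24 and 11.18 in non-targeting cells, and the pairs did not overlap. Both STC1 arrays lay below both non-targeting arrays for 18 of the 24 genes, where 25.5% of all genes did so. Car9, a surface carbonic anhydrase (-1.10, limma adjusted p = 0.0529), Ldha, lactate dehydrogenase A (-0.57, 0.0603), and Pdk1, a kinase that restrains pyruvate dehydrogenase (-0.78, 0.0629), missed the threshold. A further P4ha1 probe was above background on none of the 4 arrays compared, so its difference of -0.06 is uninformative. A further Pfkl probe differed by -0.41 and did not pass, and P4ha1 was not called under median scaling. With 1 of the 4 arrays left out the median ran from -0.58 to -0.51, and at most 2 members were called lower.

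Vegfa, the endothelial growth factor, went the other way from most of that list. It had 10.08 and 9.95 in STC1 cells at 6 µl against 9.23 and 9.03 in non-targeting cells, 1.84-fold higher (log2 difference 0.88, limma adjusted p = 0.0255). Its second probe differed by 0.57 and did not pass. Among 16 tested angiogenic ligands and receptors 3 rose and 1 fell (25%), with a median of 0.17. Angpt1, which activates the TIE2 receptor, rose 1.71-fold and Pdgfc, a platelet-derived growth factor, at least 1.60-fold. Angpt2, which can oppose Angpt1 at that receptor, fell 1.74-fold, with 9.05 and 9.27 against 9.93 and 9.99. Angpt2 was not called under median scaling, nor Pdgfc under scaling over probes detected on all arrays. A second Angpt1 probe, above background on neither non-targeting array, differed by 0.37 and did not pass.

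The ATF4 and serine and one-carbon list had a median of -0.56, and 13 of its 17 tested members lay below 0. Of them 4 fell and 0 rose (23.5%). Besides Eif4ebp1 and Chac1, these were Slc7a11, the cystine transporter subunit (2.20-fold lower), and Aldh1l2, a mitochondrial folate enzyme (2.18-fold lower). Aldh1l2 had 7.34 and 7.27 in STC1 cells at 6 µl against 8.45 and 8.41 in non-targeting cells, and its other probe fell by 0.99. A second Slc7a11 probe differed by -0.49 and did not pass (limma adjusted p = 0.0976). Asns, asparagine synthetase, differed by -0.73 on its brightest probe (limma adjusted p = 0.0729), while a dimmer probe passed at -1.10 (limma adjusted p = 0.0171). Psat1 (-0.63, 0.0755) and Phgdh (-0.64, 0.0982), enzymes of serine synthesis, and Atf4 itself (-0.48, 0.119) did not pass. Ddit3, also known as CHOP, and Trib3 differed by 0.22 and -0.06, with no call for either. With 1 of the 4 arrays left out the median ran from -0.68 to -0.33, and at most 2 members were called lower.

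Glutathione genes were mixed. Of 19 tested members 4 fell and 1 rose (26.3%) and the median was 0.02. Gsta2 had 5.97 and 6.07 in STC1 cells at 6 µl against 8.18 and 7.38 in non-targeting cells, 3.39-fold lower, and Gsta1 had 7.41 and 7.49 against 9.40 and 8.83, 3.18-fold lower. These are near-identical alpha-class transferases, and hybridisation may not keep them apart, so they should be read as 1 signal. Slc7a11 and Chac1 were the other falls and Gstt1 the rise. Among 15 tested uncoupling and antioxidant genes only Txn2, the mitochondrial thioredoxin, changed (1.76-fold lower, 6.67% of the list), and Hmox1, haem oxygenase, differed by -0.87 without passing (limma adjusted p = 0.0588). Of 20 endoplasmic reticulum folding genes 2 fell (10%), the disulfide isomerase Pdia4 (1.94-fold) and the transcription factor Xbp1 (1.54-fold), while the chaperones Hspa5 and Hsp90b1 differed by -0.36 and -0.04 and the list's median was -0.04. Xbp1 was not called under median scaling or with the replicate block.

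Of 17 tested interferon-induced genes 4 rose and 0 fell (23.5%), and 13 did not pass. The median was 0.35, the highest of the lists described here with at least 5 tested members, and 3 members lay below 0. Gbp2, an interferon-induced GTPase, had 7.55 and 7.61 in STC1 cells at 6 µl against 6.18 and 6.33 in non-targeting cells, 2.51-fold higher (log2 difference 1.33, SE 0.18, limma adjusted p = 0.0111). Oasl2, an oligoadenylate synthetase-like protein, had 7.84 and 7.91 against 6.56 and 6.61, 2.44-fold higher. Ifit2, which restrains the translation of foreign RNA, had 7.04 and 6.89 in STC1 cells against 5.88 and 5.87 in non-targeting cells, 2.13-fold higher, and its other probe rose by 1.08. The fourth was Parp14, an ADP-ribosyltransferase, 2.07-fold higher. Other classical members did not pass: Isg15 differed by 0.35, Ifit3 by 0.05, Irf9 by 0.68 and B2m by 0.06. Both STC1 arrays lay above both non-targeting arrays for 9 of the 17, where 32.9% of all genes did so. None of the 4 risen genes was called when any 1 of the 4 arrays was left out, where the list's median ran from 0.30 to 0.45.

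The promoter of Gbp2 is shown because Gbp2 had the largest rise of the list and its window holds the core of the interferon-stimulated response element, 2 copies of GAAA with any 2 bases between them. The window runs from 250 bases before to 50 bases after the RefSeq start (GRCm38.p6, chr3:142620413-142620712, plus strand), and capitals mark the match, which lies on the minus strand with its first letter at -59.
Gbp2: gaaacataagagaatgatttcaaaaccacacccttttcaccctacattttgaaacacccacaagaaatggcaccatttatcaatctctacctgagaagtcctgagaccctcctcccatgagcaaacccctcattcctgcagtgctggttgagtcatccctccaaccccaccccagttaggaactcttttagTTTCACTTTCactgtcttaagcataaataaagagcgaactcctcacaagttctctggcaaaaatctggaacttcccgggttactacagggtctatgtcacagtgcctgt
Searched on both strands, this core was in 3.443% of 32851 RefSeq promoter windows of this length and in those of 8 of the 16 interferon list members that had a window. Of the 3 risen members with a window, Gbp2 held it, and Ifit2 and Oasl2 did not. TGATGNAAT, 1 form of the ATF4 response element, searched likewise, was in 0.965% of windows and in 0 of the 15 list members with one. Forms with another last base were not searched, so this 0 does not show that these genes lack an element. A match describes letters in a window and is not evidence of binding.

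Immune signalling outside the interferon list showed single changes. Of 11 tested chemokine and myeloid growth factor genes Ccl9 rose and Il23a, a cytokine subunit, fell (1.59-fold, 18.2% of the list together), and the median was 0.04. Ccl5 and Cx3cl1, both chemokines, differed by 0.42 and 0.17 without passing. Il23a was not called under median scaling, with only the 4 arrays fitted or with the replicate block. Among 15 NF-kB genes, Nfkbie, an inhibitor of NF-kB, rose 1.59-fold and Vcam1, an adhesion molecule, fell 1.61-fold (13.3%), while Tnfaip3, a feedback inhibitor, differed by -0.55 (limma adjusted p = 0.112). The list's median was 0.00. A second Nfkbie probe differed by 0.10 and a second Vcam1 probe by -0.28, and neither passed. The second Nfkbie probe was above background on 1 STC1 array at 6 µl and on no non-targeting array. Vcam1 was not called under median scaling.

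Secreted proteases of the matrix were among the fallen genes. Of 16 tested proteases and inhibitors 3 fell and 0 rose (18.8%), with a median of -0.17, which turned to 0.06 under median scaling; that scaling moved the median of all probes to 0.23. Mmp3, stromelysin 1, had 11.56 and 11.61 in STC1 cells at 6 µl against 13.01 and 12.76 in non-targeting cells, 2.46-fold lower (log2 difference -1.30, SE 0.15, limma adjusted p = 0.00862), and its other probes fell by 1.65 and 1.42. Mmp10, stromelysin 2, had 5.35 and 5.76 against 6.83 and 6.75, 2.36-fold lower. Plaur, the urokinase receptor, fell 1.74-fold, and was not called with the replicate block or under either median scaling. Plat, tissue plasminogen activator, differed by -0.58 (limma adjusted p = 0.0996).

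Lists of growth and stress signalling targets held 1 or 2 calls each. Among 15 targets of ERK feedback and ETS factors, Dusp5, a phosphatase of ERK, fell 2.32-fold and Epha2, an ephrin receptor, 2.13-fold (13.3%), with a median of -0.33. Dusp5 had 6.09 and 5.87 in STC1 cells at 6 µl against 7.16 and 7.23 in non-targeting cells. Hbegf, a ligand of the EGF receptor, differed by -0.91 (limma adjusted p = 0.0557). Of 15 YAP and TEAD targets only Nuak2, a kinase, changed (1.62-fold higher, 6.67%), while Ccn2 differed by 0.70 and Ankrd1 by -0.58 without passing (limma adjusted p = 0.0728 and 0.0817). The 14 tested p53 targets included 1 rise, the death receptor Fas (2.07-fold), and 1 fall, the cell cycle inhibitor Cdkn1a (2.20-fold, its second probe at -0.77 also called), 14.3% together, and Bbc3 and Sesn1 did not pass at 0.46 and 0.60. A second Fas probe differed by 0.31 and further Bbc3 probes by -0.24 and 0.34, and none of them passed.

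The epithelial and mesenchymal lists held 1 call between them. In limma 0 of 8 tested epithelial genes passed, 2 had an unadjusted p under 0.05, and the median was -0.01. The keratins Krt18 and Krt7 differed by 0.19 and 0.27, and the splicing factor Esrp2 by -0.54 (limma adjusted p = 0.0814). Of 16 mesenchymal and matrix genes Col6a1, a chain of collagen VI, rose 1.76-fold (6.25%), and its other probe rose by 0.95. Fn1, fibronectin, differed by 1.03 (limma adjusted p = 0.0543), and Col5a1 and Col4a2 by -0.53 and -0.48. Beside these values stand those of the fibroblast markers, of which 2 of 10, Pdgfra and Pdgfrb, were above background. Their summed raw intensity was 1976 to 2079 on the STC1 arrays at 6 µl and 1303 to 1326 on the non-targeting arrays. Raw sums are not normalised, and the mean raw intensity of all probes was also higher on the STC1 arrays at 6 µl. After normalisation Pdgfrb was called higher (at least 1.49-fold, limma adjusted p = 0.0438). The part of the fibroblast markers in the matrix values was not tested.

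Adhesion and cytoskeletal genes changed singly. Of 13 integrins and hyaluronan genes Itgb5, an integrin subunit for vitronectin, rose 2.18-fold and Has2, a hyaluronan synthase, fell 2.05-fold (15.4%), with 6.06 and 6.39 in STC1 cells at 6 µl against 7.36 and 7.17 in non-targeting cells for Has2. The hyaluronan receptor Cd44 differed by -0.52 (limma adjusted p = 0.0784). Among 16 actin monomer binders and regulators, Tmsb10 and the severing protein Cfl1 (1.49-fold) fell and Phactr1 rose (18.8%). Capg and Twf1, both of which cap actin filaments, differed by -0.26 and -0.37 without passing. Cfl1 was not called under median scaling or with the replicate block.

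Lists of the general machinery held between 0 and 2 calls each. Polr3k and Eif4ebp1 were the 2 falls among 13 tested cap-binding and RNA polymerase III genes (15.4%), and Polr3c, another polymerase subunit, differed by -0.60 (limma adjusted p = 0.171). A dimmer Polr3c probe, above background on neither non-targeting array, went the other way at 0.32 and did not pass. Bloc1s1 was the only change among 8 BLOC-1 subunits (12.5%), with Snapin at 0.55 (limma adjusted p = 0.052) and Bloc1s2 at -0.26. A further Snapin probe went the other way, at -0.45, and did not pass. In the MYC network of 15 genes, Mycbp fell and Mxd1, a MAX partner that opposes MYC, rose 1.69-fold (13.3%), while Mxd4 differed by 1.21 (limma adjusted p = 0.0626). Mxd1 was not called with the replicate block or under scaling over probes detected on all arrays, and its difference was as small as 0.37 in other background settings. Of 24 cytosolic ribosomal protein genes Rpl22 rose 1.56-fold (4.17%), and of 26 DNA replication genes Tk1, thymidine kinase, fell 1.59-fold (3.85%), shares near the 3.91% of all genes. Tk1 was not called under median scaling. Genes were counted by their brightest probe, and dimmer probes passed for Rrm2 (-0.89, limma adjusted p = 0.0254) and Tyms (-0.61, limma adjusted p = 0.0406) of the replication list. In limma 0 of 31 oxidative phosphorylation genes passed (0 at an unadjusted p under 0.05, median 0.09), 0 of 20 mitosis genes (3, median 0.12) and 0 of 16 sterol synthesis genes (2, median -0.06). A dimmer probe for Fdps, an enzyme of the sterol list, passed at 0.72 (limma adjusted p = 0.0446). The mitotic kinase Aurka was closest, at -0.61 (limma adjusted p = 0.0502).

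**Figure D3:**
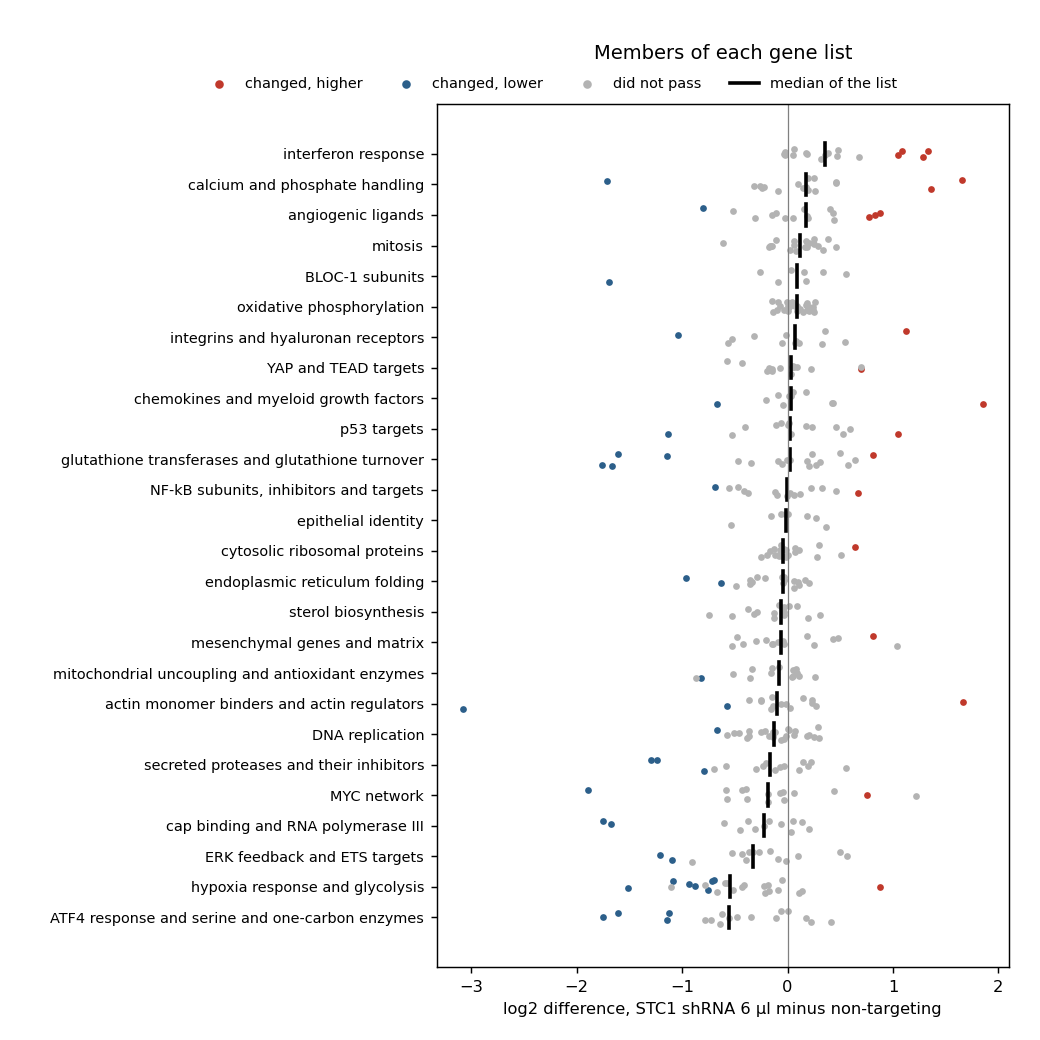
Log2 difference of STC1 shRNA 6 µl minus non-targeting (horizontal axis) for each tested member of each list, with 1 point a gene and a black bar at the list's median. Red points rose, blue points fell and grey points did not pass; of these lists, each with at least 5 tested members, the ATF4 and hypoxia lists lie furthest left (medians -0.56 and -0.54) and the interferon list furthest right (0.35).

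Whether the larger volume of STC1 virus gave another result was tested by setting the STC1 arrays at 18 µl directly against those at 6 µl. In limma 0 of 18076 probes passed, the smallest adjusted p was 0.434, and 1230 probes (6.80%) had an unadjusted p under 0.05; under median scaling 121 probes passed. Stc1 was 0.12 higher at 18 µl than at 6 µl (95% interval -0.25 to 0.49), and its difference from non-targeting was -1.29 at 18 µl beside -1.41 at 6 µl. Both comparisons with non-targeting share the same 2 control arrays. Replicate 1 at 18 µl lay further from the 2 STC1 arrays at 6 µl than replicate 2 did. Its median absolute log2 differences over tested probes were 0.187 and 0.184, against 0.139 and 0.142 for replicate 2. How far the differences between volumes rest on replicate 1 was not tested. At 18 µl, 423 genes (4.34%) were called against non-targeting, 195 higher (2%) and 228 lower (2.34%). The 15 genes with the largest falls at 6 µl differed from non-targeting by -3.21 to -1.29 at 18 µl beside -3.08 to -1.41 at 6 µl, and the direct difference between volumes had an interval that included 0 for each. Tmsb10 differed from non-targeting by -3.21 at 18 µl beside -3.08 at 6 µl. The 15 genes with the largest rises differed by 0.90 to 2.68 at 18 µl beside 1.30 to 2.13 at 6 µl. Both sets were chosen by their size on the 6 µl arrays, which also enter the direct difference.

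For 3 of those rises the interval of the direct difference left out 0, as it did for 5.48% of all genes, and 13 of the 15 lay below 0. Ccl9 was higher at 18 µl than at 6 µl by 0.83 (95% interval 0.46 to 1.19), with a difference from non-targeting of 2.68 at 18 µl beside 1.85 at 6 µl. F5 was lower at 18 µl than at 6 µl by 0.77 (difference -0.77, 95% interval -1.35 to -0.19), and Inmt likewise (difference -0.69, 95% interval -1.31 to -0.08). None of the 3 passed after adjustment (limma adjusted p = 0.434 for Ccl9, 0.643 for F5 and 0.687 for Inmt). The hypoxia and glycolysis list had a median difference from non-targeting of -0.22 at 18 µl beside -0.54 at 6 µl, with 3 falls at 18 µl beside 7 at 6 µl. In the direct comparison 20 of its 24 genes were higher at 18 µl than at 6 µl, with a median of 0.17 against 0.01 for all genes. The interferon list had 3 rises at 18 µl beside 4 at 6 µl, and the ATF4 list 4 falls at each volume.

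Sterol synthesis genes, with no call in the comparison of 6 µl with non-targeting, all lay higher at 18 µl than at 6 µl of STC1 virus, by 0.25 to 0.75 for the 16 tested. Lss, which forms lanosterol, differed by 0.68 between the volumes and Nsdhl, a sterol dehydrogenase, by 0.75, and neither passed. The STC1 arrays at 18 µl were themselves apart on further Nsdhl probes. These had 7.76, 7.80 and 7.41 on replicate 1 against 7.27, 7.14 and 6.59 on replicate 2. The list's mean deviation from the non-targeting mean was -0.15 on the non-targeting array given 6 µl and 0.15 on the one given 18 µl. The median difference from non-targeting was -0.06 at 6 µl of STC1 virus and 0.33 at 18 µl, while the control arrays were given different volumes. Comparing the effect of the STC1 virus at 18 µl with that at 6 µl, each against the control array of its own volume, gave 0 changed probes in limma, with 773 (4.28%) at an unadjusted p under 0.05. With 1 control array a volume, its 2 residual degrees of freedom come from the STC1 pairs alone, so this 0 does not show that the volumes act alike.

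**Figure D4:**
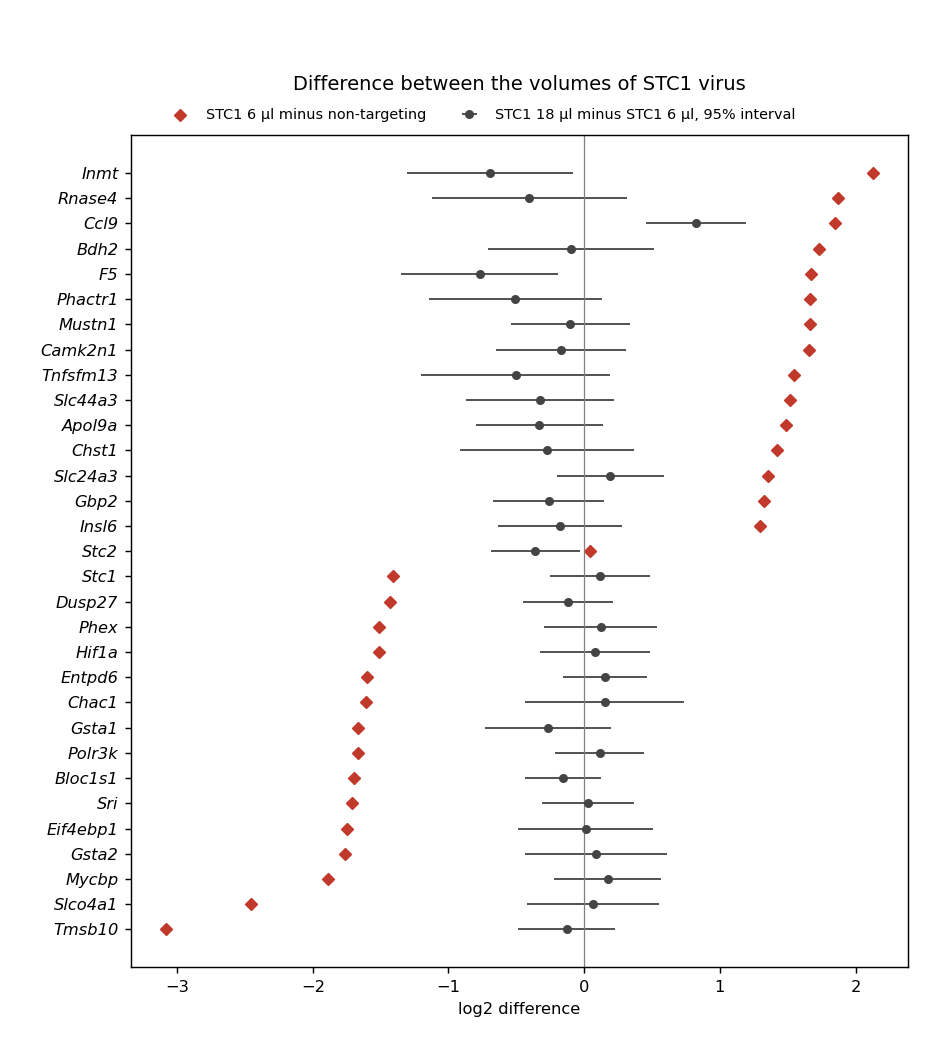
Red diamonds give the log2 difference of STC1 shRNA 6 µl minus non-targeting and dark points the difference of STC1 shRNA 18 µl minus 6 µl with its 95% interval, for Stc1, Stc2 and the genes with the largest rises and falls. The intervals between volumes include 0 for all 15 largest falls, and leave it out for Ccl9, F5 and Inmt among the rises and for Stc2.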

How the data were processed

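The authors deposited unnormalised bead intensities of 6 Illumina arrays, per the file headers, and beside each a detection p-value. The deposited log2 values differed from quantile-normalised log2 intensities by a median of 0.0012 to 0.00154 per array. The scanner software is not given in the sources used here. Intensities were processed with neqc (limma 3.58.1, R 4.3.3, offset 16), which infers 936 negative controls from the detection p-values. A probe was tested if its detection p-value was below 0.05 on 2 or more of the 6 arrays. Of 34903 annotated probes 34885 had 1 symbol, 18 had several, and 34807 matched by gene identifier. Of the tested probes 15408 named 9754 genes, the brightest probe standing for each, and 2668 named none.

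Differences were fitted with lmFit and eBayes, with 1 mean for each of 3 groups, 3 residual and 5.66 prior degrees of freedom, and two-sided tests. Quantile normalisation removes a shift shared by most transcripts, and the offset understates folds of dim probes. The genes named are the 15 largest rises and falls among changed genes with separated arrays, changed genes detected in 1 group only, and up to 5 list members by p. Members and lists were chosen with earlier results of these data known. Same-numbered arrays of STC1 at 6 µl and non-targeting did not deviate together (r = -0.02, a description across probes), so no block was used. On simulated data for this comparison (18076 probes, 50 changed at each size), 24% of changes of 0.5, 98% of 1 and 100% of 1.5 and of 2 on the log2 scale were recovered, with 11 false calls of 172. The simulated noise was independent between probes, drawn from the fitted spread, and passed no background or normalisation step. These rates therefore do not carry over to the arrays, where some differences above 1, such as 1.21 for Mxd4, did not pass. Alternatives were other background corrections, scalings, filters and arrays left out, with 1 scaling added after seeing the data.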

Additional observations from a re-analysis of the deposited data

How the results depend on the processing

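Counts of changed probes and genes in STC1 cells at 6 µl against non-targeting cells, 691 and 381 as reported, depended on the settings. They were 1566 and 929 without background correction, 1569 and 933 on the deposited log2 values, 1600 and 946 with an offset of 50, 2985 and 1784 under median scaling, 277 and 162 when dim probes were kept, and 1022 and 583 with detection on all 6 arrays. Median scaling moved the median of all probes to 0.23 and the share of higher calls to 91.3%, against 52.4%; scaling over probes detected on all arrays, added after seeing the data, gave 407 genes, 38.2% of changed probes higher and a median of -0.05. Leaving out 1 array gave 18 to 916 probes and 10 to 519 genes. For STC1 at 18 µl minus 6 µl, 121 probes passed under median scaling and 0 to 1 with 1 array left out. Stc1 ran from -1.55 to -1.27 with 1 array left out. All 381 genes kept their direction wherever tested, which with 1 array left out their separated arrays largely fixed in advance. With a replicate block, 615 probes and 338 genes passed, 306 of them among the 381; the labels do not say that replicate numbers mark a shared batch. Of 69 changed genes named by rule, 38 lost their call when dim probes were kept, 8 under median scaling, 5 under the added scaling, 5 with the replicate block and 2 with only the 4 arrays fitted. The cause of these differences was not tested.

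List medians that changed sign under median scaling were proteases (0.0595), antioxidant enzymes (0.19), endoplasmic reticulum folding (0.22), actin regulators (0.18), cap binding and RNA polymerase III (0.0042), MYC network (0.0427), DNA replication (0.18), ribosomal proteins (0.20), NF-kB (0.22), mesenchymal genes (0.0885), sterol synthesis (0.17) and epithelial identity (0.25), of which only the last lay above the shift of all probes. With 1 array left out, signs also changed for the medians of NF-kB (-0.124 to 0.0277), epithelial (-0.102 to 0.17), mesenchymal (-0.124 to 0.0205), sterol (-0.247 to 0.0633), chemokine (-0.0168 to 0.143) and glutathione genes (-0.0297 to 0.142). NF-kB also turned with no filter or detection on all 6 arrays (0.0104 in both), and epithelial identity without background correction (0.0177) or on the deposited values (0.0183). The median of YAP and TEAD targets was -0.0076 with no filter, -0.0744 with detection on all 6 arrays, -0.0184 with detection on 2 of the 4 arrays compared, -0.0485 under the added scaling, and -0.0829 to 0.0369 with 1 array left out, below 0 without STC1 replicate 1, STC1 replicate 2 or non-targeting replicate 1. That of integrins was -0.0513 with no filter, -0.0344 under the added scaling and -0.0288 to 0.0965 with 1 array left out, below 0 without non-targeting replicate 1. That of antioxidant enzymes was -0.108 to 0.0291 with 1 array left out, above 0 without either STC1 array. The medians of the interferon, hypoxia and ATF4 lists kept their sign in all 16 alternatives.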

Other observations

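Clock genes and genes of the TGF-beta pathway were listed after their values had been seen, so the values below are descriptions and support nothing further. For both lists, the shares over all genes tested were 2.16% higher and 1.74% lower. Of 13 tested clock genes 2 rose and 2 fell. Dbp, a clock-controlled transcription factor, had 7.74 and 7.90 in STC1 cells at 6 µl against 6.40 and 6.64 in non-targeting cells, 2.45-fold higher (limma adjusted p = 0.0102), and Per2, a repressor of the clock, was 1.79-fold higher. Arntl, the activating factor BMAL1, was 1.67-fold lower, with 6.82 and 7.04 against 7.66 and 7.66, and Noct, a rhythmic phosphatase, was 1.69-fold lower. Of 16 tested TGF-beta genes 5 rose and 0 fell: the receptors Tgfbr3 (2.00-fold) and Tgfbr1 (1.67-fold), the latent TGF-beta binding protein Ltbp4 (1.85-fold), the signal carrier Smad3 (1.66-fold) and its inhibitor Skil (1.61-fold).

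Further changed genes known to be induced by interferon, also picked after their values were seen, were Uba7, the ISG15-activating enzyme (2.23-fold higher), Apol9b (2.09-fold), Samd9l (1.92-fold), Tap2, a peptide transporter (1.87-fold), Gbp2b (1.74-fold), Znfx1 (1.58-fold) and Ifi27l2a (at least 1.31-fold). Ifitm2, a membrane protein that restricts virus entry, was 1.57-fold lower.

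Each group had 2 arrays, and the control arrays differed in virus volume. Every STC1 array carried the STC1 virus and no second virus against Stc1 is labelled, so effects of the loss of Stc1 and effects of the hairpin on other transcripts cannot be told apart. The sources used here give no chip, slide or scan date. Groups of 2 are too small for a search for outlying arrays.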
